A study of Mus musculus with 4 samples.

Results

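The peaks described here are the 300 p53-binding sites of mouse hematopoietic progenitor lines that sat in the middle of the irradiation (IR) response, out of 7384 sites in the deposited list. They were selected on the peak number at the end of each name, which orders the list by how much p53 binding changed after IR, from the largest fold increase down. Ranks 6642 to 6801 are Group II, the 160 sites classified as unchanged, and ranks 6502 to 6641 are the 140 sites at the end of Group I, the sites with increased binding. The remaining 6501 Group I sites, called earlier Group I here, and the 583 sites of Group III, where binding was reduced, were used only to show where the selected sites differed. The rank chose the sites, so it is used below only to order them. Fold changes of single peaks are not used here, and position and sequence were not part of the selection.

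The series comprises 4 ChIP-Seq libraries, with 1 library per condition. The p53 libraries are from untreated Ba/F3 cells, Ba/F3 cells irradiated with 3 Gy and taken after 3 h, and untreated HPC7 cells, and a library of the histone mark H3K27ac is from the irradiated Ba/F3 condition. Ba/F3 is an IL-3-dependent line of B cell progenitors, and HPC7 is a line of multipotent progenitors grown with SCF. Both are wild type for p53, and by the sample labels both stably expressed MYSM1 with a triple FLAG tag and were held under puromycin selection, the untreated cells included. The list gives positions only, with no column of a single library, so neither the depth of the libraries nor the marker genes of the lines could be examined. All comparisons below are between peaks of 1 list, which are not replicates of an experiment. Shares carry 95% Wilson intervals that cover counting error only, and p-values are from Fisher's exact test, two-sided, adjusted by the Benjamini-Hochberg method over 19 comparisons.

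p53 is a transcription factor that acts in DNA damage responses and binds DNA as a tetramer. Its consensus consists of a pair of half-sites of 10 bp, each with a core of the form CNNG in which the inner bases are A or T, most often CATG, flanked by purines on one side and pyrimidines on the other. In hematopoietic progenitors it is known for halting the cell cycle and triggering apoptosis after irradiation, through targets such as *Cdkn1a*, *Bax* and *Bbc3*, and it limits its own activity by inducing *Mdm2* and other inhibitors. Promoters of widely expressed genes are often CpG-rich and hold binding words of general factors such as SP1.

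Examples of the p53 sites are shown first, as 20-mers from the plus strand of mm9, with the core of each half-site in capitals. They lie at known p53 targets among the selected peaks, picked after their values were seen to span the range from a perfect site to 3 mismatches. The number of mismatches in 20 positions follows each name.
*Zmat3* intron, 0 mismatches, chr3:32263253-32263272: agaCATGcctgggCTTGttt
*Cdkn1a* upstream site, 1 mismatch, chr17:29227873-29227892: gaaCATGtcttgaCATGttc
*Cdkn1a* far upstream site, 1 mismatch, chr17:29215984-29216003: aggCAAGcccgggCAAGgcc
*Cdkn1a* intron, 3 mismatches, chr17:29231443-29231462: gatCGTGcctgggCACGtcc
*Mdm2* upstream site, 1 mismatch, chr10:117154792-117154811: ggaCATGtttgtaCATGttt
*Ccng1* promoter, 1 mismatch, chr11:40568964-40568983: aggCTTGcccgggCAGGtct
*Mir34b* upstream site, 1 mismatch, chr9:50914028-50914047: ggtCATGcctaggCATGtct
*Bax* promoter, 2 mismatches, chr7:52721944-52721963: cgaCAAGcccgggCCTGccc
In all of these the site lay within 14 bp of the peak centre.

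The kinds of peak that met within Group II are shown by 2 whole peaks of 100 bp, again from the plus strand of mm9. The first, at *Cdkn1a*, has its p53 site in capitals and no CG dinucleotide. The second, at the *Ppm1d* promoter, has no p53 site, 9 CG dinucleotides, and overlapping copies of the SP1 word GGGCGG in capitals.
*Cdkn1a*, rank 6703, chr17:29227826-29227925: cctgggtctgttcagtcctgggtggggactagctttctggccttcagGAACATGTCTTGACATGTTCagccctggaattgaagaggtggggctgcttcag
*Ppm1d*, rank 6777, chr11:85124649-85124748: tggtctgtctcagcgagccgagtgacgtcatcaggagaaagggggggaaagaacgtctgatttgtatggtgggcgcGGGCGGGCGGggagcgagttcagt

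Group II peaks lay at promoters more often than the peaks at the end of Group I. A peak was called proximal when its centre was within 1 kb of the transcription start site (TSS) of any annotated transcript, which held for 18.6% of the whole list. In Group II, 65 of 160 peaks were proximal (40.6%, interval 33.3% to 48.4%), and at the end of Group I 22 of 140 (15.7%, interval 10.6% to 22.6%). The odds were 3.65 times higher in Group II (95% interval 2.05 to 6.7, adjusted exact p = 4.1e-06). The end of Group I and earlier Group I, where 772 of 6501 peaks were proximal (11.9%), were not separated by the test (odds ratio 1.38, interval 0.83 to 2.21, adjusted exact p = 0.22). The gap of 3.84 points was 6.08 with a limit of 500 bp (adjusted exact p = 0.018) and -0.652 with the last 300 peaks of Group I (adjusted exact p = 0.79). Group II in turn stayed far below Group III, where 517 of 583 peaks were proximal (88.7%, adjusted exact p = 3.2e-33).

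**Figure D1:**
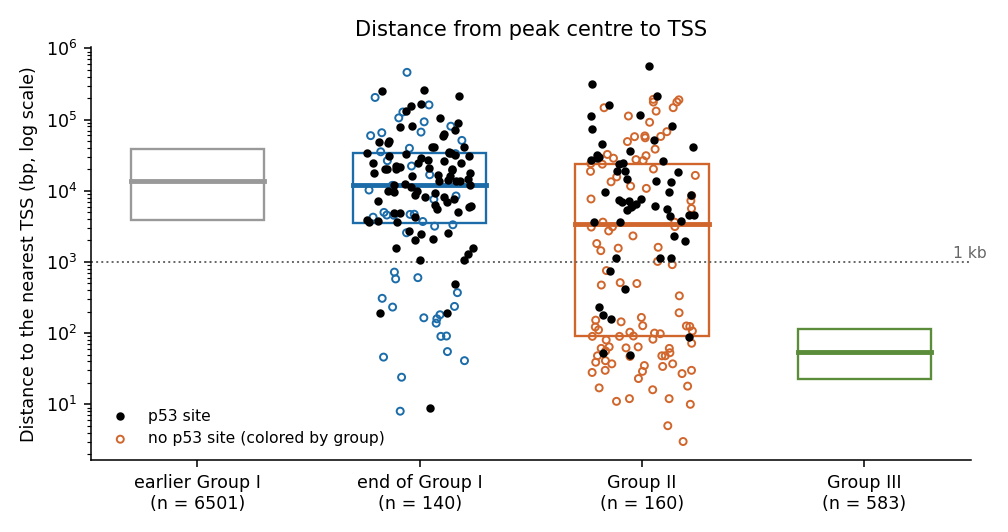
Distance from the peak centre to the nearest TSS, in bp on a log scale, for the 4 parts of the list. Boxes run from the lower to the upper quartile, thick lines are medians, and for the end of Group I and Group II each point is a peak, filled where a p53 site was found. Group II points fall into a cloud below 1 kb, mostly open, and a cloud above it, mixed.

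The median distance to a TSS was 11989 bp at the end of Group I, 3356.5 bp in Group II and 55 bp in Group III. The proximal Group II peaks sat close to the start, at a median of 64 bp, against 172.5 bp for the 22 proximal peaks at the end of Group I. Of the proximal Group II peaks, 52 of 65 (80.0%, interval 68.7% to 87.9%) were centred upstream of the TSS, compared with 12 of 22 (54.5%, interval 34.7% to 73.1%) at the end of Group I and 83.6% in Group III. Distal peaks of both portions lay in introns or between genes in nearly all cases. In Group II 44 of the 95 distal peaks were intronic and 49 intergenic, and at the end of Group I 58 of 118 were intronic and 55 intergenic, with median distances of 16412 and 17336 bp.

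The p53 site showed the opposite difference. A site was counted where both half-sites were adjacent, both cores kept their outer C and G, and at most 3 of 20 positions, the inner bases of the cores included, differed from the consensus, within 100 bp of the centre (the consensus reads the same on both strands), and 54.4% of all peaks had one. At the end of Group I, 91 of 140 peaks had a site (65.0%, interval 56.8% to 72.4%), and in Group II 57 of 160 (35.6%, interval 28.6% to 43.3%). The odds in Group II were 0.299 of those at the end of Group I (interval 0.18 to 0.492, adjusted exact p = 1.5e-06). Group II was nevertheless distinct from Group III, where 6 of 583 peaks (1.03%) had a site, all with 3 mismatches (odds ratio 52.8, interval 22.0 to 154, adjusted exact p = 2.4e-34). The difference between the end of Group I and earlier Group I (59.5%) was 5.53 points and did not pass the test (adjusted exact p = 0.22). It was 14.2 points with at most 2 mismatches (adjusted exact p = 0.0015), 15.1 with the last 300 peaks of Group I (adjusted exact p = 2.1e-07) and -0.854 with a spacer allowed (adjusted exact p = 0.83). In windows of the same size 10 kb upstream of the selected peaks, 1 of 300 (0.333%) had a site. The sites lay near the centre of the peaks, at a median of 7 bp at the end of Group I and 5 bp in Group II.

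Proximal and distal peaks also differed in this respect within each portion. In Group II, 49 of 95 distal peaks (51.6%) and 8 of 65 proximal peaks (12.3%) had a p53 site (odds ratio 7.49, interval 3.12 to 20.2, adjusted exact p = 9.4e-07). The counts at the end of Group I were 87 of 118 (73.7%) and 4 of 22 (18.2%, odds ratio 12.4, interval 3.69 to 54.2, adjusted exact p = 3.1e-06). With spacers allowed the gaps of 39.3 and 55.5 points became 21.5 and 27.7. Among distal peaks alone, Group II still had fewer sites than the end of Group I (odds ratio 0.381, interval 0.205 to 0.701, adjusted exact p = 0.0014). That call was lost when peaks of repeated sequence, described below, were left out, with 44.9% against 63.0% (adjusted exact p = 0.053). Among proximal peaks the difference did not pass the test (odds ratio 0.635, interval 0.148 to 3.23, adjusted exact p = 0.49), with only 22 peaks from Group I. With a limit of 5 kb it did, at 21.6% against 42.9% (adjusted exact p = 0.014).

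The 12 proximal peaks with a site were few enough to name. Those of Group II were at *Ccng1*, at *Cdkn1a* with 2 peaks, at the noncoding gene *Gm16197* upstream of *Cdkn1a*, and at *Atl2*, *Bbs2*, *Crtc1* and *Mark4*. The last 4 were the only Group II peaks that were CpG-rich and had a site, with 2 mismatches at *Bbs2* and 3 at the others. The proximal sites of the Group I portion were at *Bax*, *Psrc1*, *Rps19* and *Gm11974*, with 2, 1, 2 and 0 mismatches. The peak at *Gm11974* lay in repeated sequence, described below, in a family of 1155 peaks, and its 100 bp occurred at 65 places in mm9. These names were taken after their values were seen.

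CpG-rich peaks of both portions were nearly all proximal, but the CpG-rich share of proximal peaks also differed between the parts. A peak was called CpG-rich where its 200 bp had a GC content of at least 55% and a ratio of observed to expected CpG of at least 0.65, which held for 10.5% of the list. In Group II 52 of 160 peaks were CpG-rich (32.5%), at the end of Group I 14 of 140 (10.0%), in earlier Group I 3.31% and in Group III 85.1%. The odds were 4.31 times higher in Group II than at the end of Group I (interval 2.21 to 8.91, adjusted exact p = 5.2e-06), and 3.25 times higher at the end of Group I than in earlier Group I (interval 1.7 to 5.77, adjusted exact p = 4.9e-04). The gap between the end of Group I and earlier Group I was 6.69 points, 3.37 with the last 300 peaks of Group I and 10.6 without peaks of repeated sequence. Of the 52 CpG-rich Group II peaks, 1 was distal. Among proximal peaks, the CpG-rich share was 24.4% in earlier Group I, 63.6% (14 of 22) at the end of Group I, 78.5% (51 of 65) in Group II and 91.7% in Group III. Median GC was 66.0% at the 65 proximal and 47.5% at the 95 distal Group II peaks, and Group III as a whole had 69.5%. For reference, 43.5% of windows of the same length at protein-coding TSSs were CpG-rich and 0.79% had a p53 site.

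**Figure D2:**
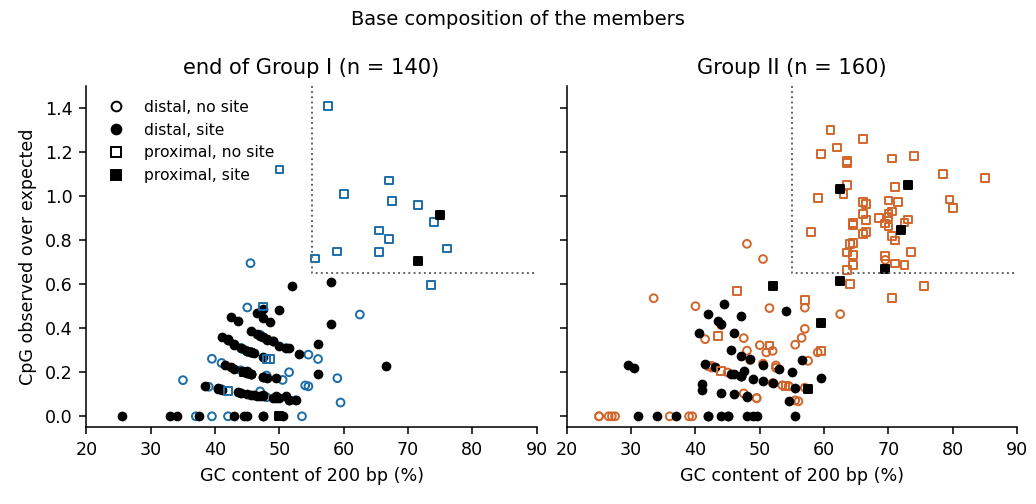
GC content (%) against the ratio of observed to expected CpG in the 200 bp of each selected peak, at the end of Group I on the left and in Group II on the right. Squares are proximal and circles distal peaks, filled symbols have a p53 site, and dotted lines bound the CpG-rich area, which holds 14 peaks on the left and 52 on the right, few of them filled.

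With site and CpG content combined, Group II split into 53 peaks with a p53 site only, 48 that were CpG-rich only, 4 with both and 55 with neither. The end of Group I had 89, 12, 2 and 37 peaks in the same classes. In Group II the CpG-rich peaks without a site were proximal in 47 of 48 cases, and the peaks with neither feature were distal in 45 of 55. When a spacer of up to 13 bp was allowed between the half-sites, a site was found at 82 Group II peaks and 109 peaks at the end of Group I. A spacer adds more ways to match, so these sites were not counted in the main comparisons.

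**Figure D3:**
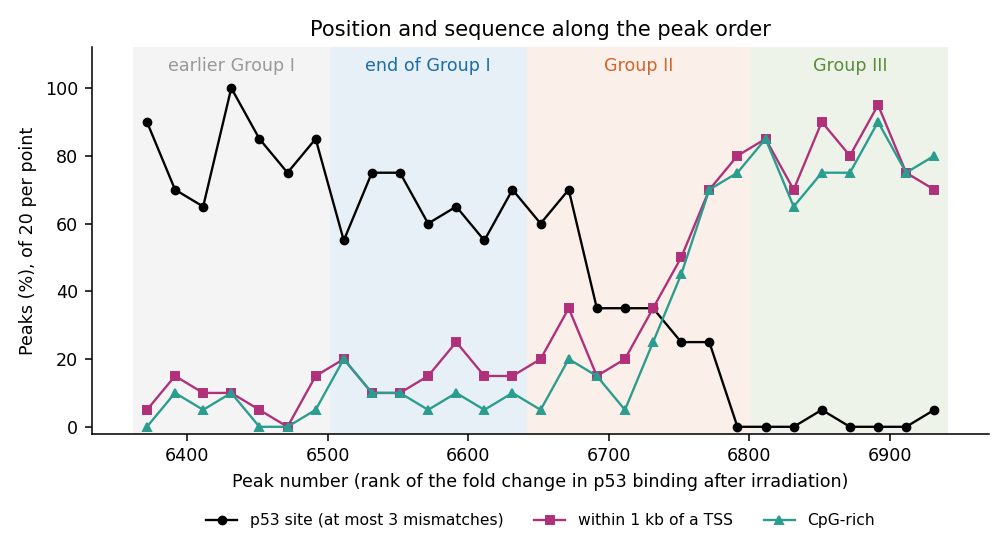
Share of peaks (%) with a p53 site, within 1 kb of a TSS, or CpG-rich, in consecutive bins of 20 peaks along the rank, with the parts of the list shaded. Within Group II the share with a site goes from 60% in the first bin to 0% in the last, and the proximal share from 20% to 80%.

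Group II was not uniform along the rank. In the first 40 of its peaks 26 had a p53 site, 11 were proximal and 5 were CpG-rich. In the next 40 the counts were 14, 7 and 4, and in the following 40 they were 12, 17 and 14. In the last 40 peaks, next to Group III, 5 had a site, 30 were proximal and 29 were CpG-rich. Of the last 20 Group II peaks 0 had a site and 16 were proximal, and the first 20 Group III peaks had 0 and 17. At the end of Group I, successive sets of 35 peaks had 23, 25, 20 and 23 sites. In bins of 20 peaks the share with a site was 55% to 75% in this portion, and 65% to 100% at ranks 6362 to 6501 just before it. At the rank limits themselves neighboring peaks were as follows. Rank 6501, nearest to *Gm13727*, had a site with 2 mismatches and rank 6502, nearest to *Gstm2-ps1*, had none. At the limit of Groups I and II, ranks 6641 (*B230206L02Rik*) and 6642 (*Plekha2*) each had a site with 1 mismatch, 1052 and 28782 bp from a TSS. At the other limit rank 6801 lay 755 bp downstream of an internal TSS of the gene model named *Rpl24* in the annotation. Rank 6802 was 100 bp upstream of *Rnf114*, and neither had a site.

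Where a p53 site was present, it was often of high quality in both portions. Of the list's peaks with a site, 44.0% had at most 1 mismatch. The share was 64 of 91 at the end of Group I (70.3%), 34 of 57 in Group II (59.6%) and 1671 of 3866 in earlier Group I (43.2%). Both portions exceeded earlier Group I, the end of Group I with an odds ratio of 3.11 (interval 1.95 to 5.1, adjusted exact p = 9.4e-07) and Group II with 1.94 (interval 1.11 to 3.47, adjusted exact p = 0.019). Without peaks of repeated sequence, described below, the shares were lower, at 49.0% at the end of Group I, 46.5% in Group II and 26.2% in earlier Group I. Among the last 300 peaks of Group I, which include the selected 140, 165 of 222 sites (74.3%) had at most 1 mismatch, so this quality was not particular to the selection. With sites of at most 2 mismatches the gap of the end of Group I over earlier Group I was 15.5 points, against 27.1 here. The call for Group II over earlier Group I depended on the definition of the site. With sites of at most 2 mismatches Group II was 6.1 percentage points above earlier Group I (adjusted exact p = 0.38), and with spacers allowed 1.29 points (adjusted exact p = 0.83). Between the end of Group I and Group II the difference did not pass the test (odds ratio 0.626, interval 0.295 to 1.33, adjusted exact p = 0.22). This too depended on the definition, as the difference was -10.7 points here, -20.6 with spacers (adjusted exact p = 0.0079), -14.7 with the last 300 peaks of Group I (adjusted exact p = 0.037) and -2.47 without peaks of repeated sequence. Perfect sites numbered 42 at the end of Group I and 18 in Group II, and sites with 1, 2 and 3 mismatches numbered 22, 18 and 9 against 16, 12 and 11. Both cores were CATG in 18 of 91 sites at the end of Group I (19.8%) and in 16 of 57 in Group II (28.1%), beside 24.7% in earlier Group I.

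**Figure D4:**
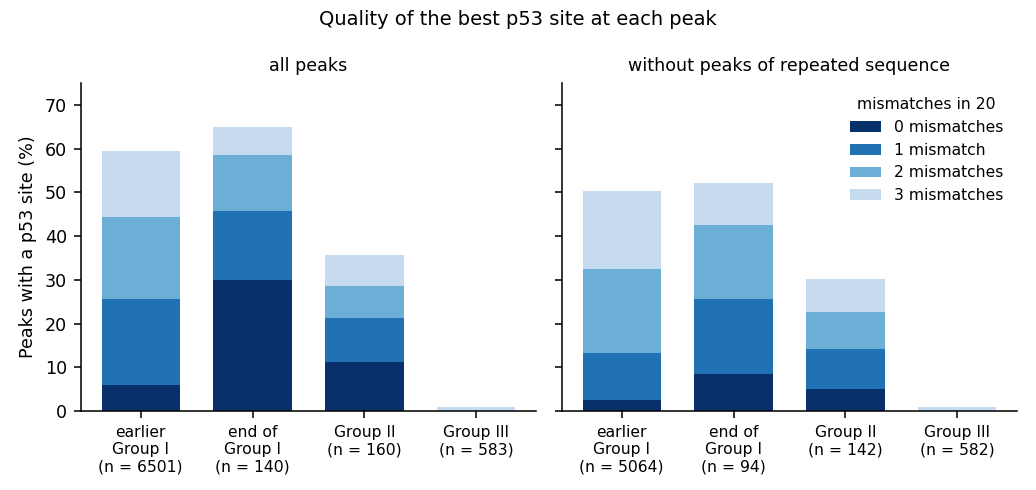
Share of peaks (%) with a p53 site, divided by the number of mismatches in 20 positions, for all peaks on the left and without peaks of repeated sequence on the right. Perfect sites made up 30.0% of peaks at the end of Group I and 11.2% of Group II on the left, and 8.51% and 4.93% on the right.

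Most of the perfect sites were copies of a few repeated sequences. A peak was assigned to a repeated sequence where its 200 bp belonged to a family of at least 20 peaks of the list joined by at least 80% identity over at least 100 bp, which held for 20.3% of the list. At the end of Group I, 46 of 140 peaks belonged to such a family (32.9%), in Group II 18 of 160 (11.2%), in earlier Group I 22.1% and in Group III 1 of 583 (0.172%). Group II had fewer than the end of Group I (odds ratio 0.26, interval 0.133 to 0.49, adjusted exact p = 9.0e-06), and the end of Group I more than earlier Group I (odds ratio 1.72, interval 1.18 to 2.49, adjusted exact p = 0.0053). The share was higher still, at 143 of 300 (47.7%), among the last 300 peaks of Group I, so the excess was not particular to the selected portion, and the gaps of -21.6 and 10.8 points then became -36.4 and 26.5. One family, with 1155 peaks in the list, held 38 peaks of the end of Group I and 15 of Group II. A second family of 274 peaks held 7 and 3, among them the peak in the *Mdm4* intron.

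Of the perfect sites, 45 lay in families and 15 outside. The 45 comprised 11 distinct 20-mers. The most frequent are printed here, each written from whichever strand comes first in the alphabet, with cores in capitals, because the count of perfect sites rests on them.
22 peaks, 21 of them at the end of Group I: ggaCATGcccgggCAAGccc
11 peaks, 6 at the end of Group I and 5 in Group II: aaaCAAGcccgggCATGccc
3 peaks, all at the end of Group I: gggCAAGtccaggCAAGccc
For 30 peaks at the end of Group I the whole 100 bp also occurred exactly elsewhere in mm9, at up to 74 places in all, and 28 of these peaks were in families. In Group II there were 7 such peaks, with up to 15 places. Identical sequences give reads that cannot be told apart, and how reads with several equally good positions were treated was not given in the sources used here.

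Outside the families, perfect sites were found at 8 of 94 peaks at the end of Group I (8.51%, interval 4.38% to 15.9%), at 7 of 142 in Group II (4.93%, interval 2.41% to 9.83%) and at 127 of 5064 in earlier Group I (2.51%). The Group II peaks were nearest to *Mgat5*, *Irf5*, *Gm11531*, *Dyrk3*, *Zmat3*, *Gm9530* and *Luc7l3*. *Irf5* encodes an interferon regulatory factor and *Dyrk3* a protein kinase. The peak of *Dyrk3* was 1144 bp upstream of its TSS, that of *Irf5* was 7119 bp downstream of its TSS, in an intron of the neighboring *Tnpo3*, and the others except *Zmat3* lay 7444 to 26935 bp from a TSS. The nearest genes at the end of Group I were *Atg7*, *Ylpm1*, *Gli2*, *5330426P16Rik*, *Gm15064*, *Xiap*, *Gm9958* and *Acp6*. *Atg7* encodes an autophagy enzyme and *Xiap* an inhibitor of caspases, and these peaks lay 24582 bp downstream and 41516 bp upstream of the respective TSS.

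Of 22380 protein-coding genes, 190 (0.849%) had a selected peak within 10 kb of a TSS, 67 with a peak at the end of Group I and 124 with one in Group II. Among 4 lists of known p53 targets, the counts were 3 of 16 genes of cell cycle arrest, 3 of 26 of apoptosis, 3 of 21 of feedback and the p53 family, and 3 of 34 of repair and metabolism. Since any peak of the whole list was found at 68.8%, 57.7%, 52.4% and 61.8% of the genes of these lists, and at 15.6% of all protein-coding genes, most of the listed targets with a peak had it elsewhere in the order. The lists of DNA repair genes (66), hematopoietic factors (54), histones (76) and RNA polymerase subunits (27) had 0 genes with a selected peak. Other lists had few, namely 1 of 60 mitotic and replication genes, 2 of 150 cytosolic ribosomal proteins, 4 of 171 genes of the mitochondrial ribosome and respiratory chain, and 1 of 42 proteasome subunits. Ribosomal proteins were taken by annotated symbol, and 1 of the 2 rests on the gene model named *Rpl24*, described below. The lists differ in size and their genes in number of TSSs, and no test was made on them.

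**Figure D5:**
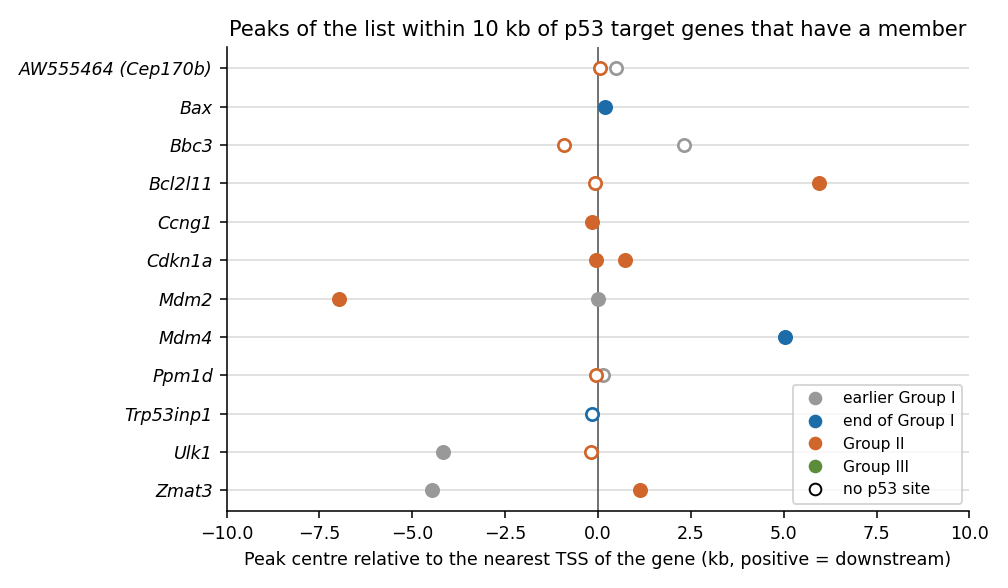
Peaks of the whole list within 10 kb of p53 target genes that had a selected peak, with *Bcl2l11* added and 1 gene left out, placed by their distance to the nearest TSS of the gene (kb, positive downstream). Colors give the part of the list and open symbols have no p53 site; *Cdkn1a*, *Ccng1* and *Bcl2l11* have Group II peaks only, and *Ppm1d*, *Mdm2*, *Zmat3*, *Bbc3*, *Ulk1* and AW555464 also have an earlier Group I peak.

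Among genes of cell cycle arrest, *Cdkn1a* encodes the CDK inhibitor p21. Its peaks within 10 kb were both in Group II. Rank 6703 lay 49 bp upstream of the first annotated TSS (chr17:29227924) and 2842 bp upstream of the next one, which begins another transcript at position 29230717, and its site, shown above, had 1 mismatch and CATG in both cores. Rank 6670 lay 739 bp downstream of that second TSS, in an intron, with a site of 3 mismatches. Another Group II peak, rank 6669, was centred 11929 bp upstream of the first TSS, with a site of 1 mismatch. *Ccng1*, which encodes cyclin G1, had a single Group II peak 156 bp upstream of its TSS with a site of 1 mismatch. *Zmat3*, which encodes a zinc finger RNA-binding protein, had a perfect site at an intronic Group II peak 1134 bp downstream of an internal TSS, and an earlier Group I peak of rank 1792 with 1 mismatch 4481 bp upstream of its outermost TSS.

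Among genes of apoptosis, *Bax*, a pore-forming member of the BCL2 family, had a peak at the end of Group I 190 bp downstream of a TSS, in a UTR. It was one of the few CpG-rich peaks with a site (71.5% GC, 2 mismatches). *Trp53inp1*, which encodes a p53-inducible nuclear protein, had a CpG-rich peak of the same portion 164 bp upstream of the TSS without a site unless a spacer of 7 bp was allowed, and then with 3 mismatches. *Bbc3* encodes the BH3-only protein PUMA. Its Group II peak of rank 6710 was centred 915 bp upstream of a TSS and had no site without a spacer, and one of 3 mismatches with a spacer of 9 bp. An earlier Group I peak of rank 3798 lay 2312 bp downstream of another TSS of the gene. It also had no site without a spacer, and one of 1 mismatch with a spacer of 1 bp. *Bcl2l11*, which encodes the BH3-only protein BIM and was named because it had more than 1 selected peak, had Group II peaks of both kinds. Rank 6792 was CpG-rich (72.5% GC) and 80 bp upstream of a TSS without a site, and rank 6668 was intronic with 42.0% GC and a site of 1 mismatch.

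Among regulators of p53, *Mdm2* encodes the ubiquitin ligase that degrades p53. It had an earlier Group I peak of rank 4719 centred 7 bp upstream of one of its TSSs, with a site of 3 mismatches, and a Group II peak 6978 bp upstream of its outermost TSS with a site of 1 mismatch. The site with fewer mismatches was thus at the Group II peak. At *Ppm1d*, which encodes the WIP1 phosphatase that dampens p53 signaling, the Group II peak 48 bp upstream of the TSS and an earlier Group I peak of rank 1892 were centred 182 bp apart, both CpG-rich and both without a site lacking a spacer. *Mdm4*, a relative of *Mdm2* that inhibits p53, had an intronic peak at the end of Group I with 1 mismatch, 5032 bp downstream of a TSS, within the repeated sequence noted above.

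On the list of repair and metabolism targets, *Ulk1*, the kinase that starts autophagy, had a Group II peak 193 bp upstream of the TSS without a site and an earlier Group I peak 4169 bp upstream with a site of 2 mismatches. AW555464, the symbol of the mm9 annotation for *Cep170b*, was placed on the same list, and its role in repair or metabolism was not examined. It had a Group II peak and an earlier Group I peak centred 442 bp apart at its promoter, both CpG-rich and without a site. The microRNA gene *Mir34b*, a known p53 target, was on no list but was nearest to a Group II peak 2291 bp upstream, whose site had 1 mismatch and CATG in both cores.

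The proximal Group II peaks at genes of other lists lacked a p53 site, as did most proximal Group II peaks, of which 8 of 65 (12.3%) had one. *Mybl2*, which encodes the cell cycle factor B-MYB, and the mitochondrial genes *Atp5g2*, *Mrpl49*, *Mrps9* and *Ndufa10* had CpG-rich Group II peaks, centred 111, 34, 98 and 28 bp upstream and 30 bp downstream of a TSS, with GC content between 63.5% and 70.5%. The Group II peak of rank 6801 given above was assigned to *Rpl24*, the symbol of a protein of the large ribosomal subunit. The gene model of that name spans chr16:55966388-56009026, and the TSS used lies inside it, at 55973996. Whether that TSS belongs to the ribosomal protein gene was not checked. An earlier Group I peak with a site lay 4977 bp upstream of *Atp5g2* (rank 3858, 2 mismatches), and another 3356 bp upstream of *Rpl24* (rank 6467, 0 mismatches). In the Group I portion, *Rps19*, a protein of the small ribosomal subunit, had a CpG-rich peak 9 bp from a TSS that did have a site, with 2 mismatches. *Psmd11*, a proteasome subunit, had an AT-rich peak of the same portion without a site, 4650 bp from a TSS.

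The words of general promoter factors were counted by exact match on both strands in the 200 bp of each peak, each word on its own, so that matches of different words may overlap. The SP1 word GGGCGG was present at 46 of 160 Group II peaks (28.8%), 14 of 140 at the end of Group I (10.0%), 82.7% of Group III, 15.5% of the list and 38.6% of TSS windows. It was found at 61.5% of proximal and 6.32% of distal Group II peaks, and at 40.9% (9 of 22) of proximal and 4.24% of distal peaks at the end of Group I. The ETS word CCGGAAG was present at 6.25% of Group II, 0.714% of the end of Group I and 17.8% of Group III, beside 2.41% of the list and 8.59% of TSS windows. NRF1 (CGCATGCG) and CREB/ATF (TGACGTCA) words were each present at 3.12% of Group II and at no peak of the end of Group I, against 8.58% and 5.32% of Group III, 0.867% and 0.609% of the list, and 1.6% and 1.64% of TSS windows. CCAAT, the word of NF-Y, was present at 27.5% of Group II, 30.7% of the end of Group I and 17.5% of Group III, beside 26.7% of the list and 24.5% of TSS windows. TATAAA was present at 7.5% of Group II, 10.0% of the end of Group I and 1.54% of Group III, beside 7.61% of the list and 6.66% of TSS windows, and within Group II at 0 of 65 proximal and 12 of 95 distal peaks. Base composition also differed between these sets, and its part in the counts was not tested.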

How the data were processed

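ChIP-Seq reads of 4 libraries were mapped by the authors to mm9 with Bowtie 1.0.0, and peaks were called with MACS 1.4.1 against input DNA (versions from the submitters' processing notes). The deposited file holds positions, start and end of 7384 peaks, each 100 bp wide, and the depth behind them is unknown. How peaks of several libraries were merged was not given in the sources used here.

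Sequence was read from the mm9 genome (NCBIM37), genes and TSSs from GENCODE M1. Windows of 200 bp around peak centres were searched for the p53 consensus, and similar windows were joined with BLAST+ 2.17.0 (word size 11, e-value 1e-10). Sites printed from chromosomes were read on the plus strand. Groups were compared with SciPy 1.17.1 (Fisher's exact test, threshold 0.05). Scripts ran in Python 3.11.15, with samtools 1.23.1 and pysam 0.24.0 for sequence and matplotlib 3.10.9 for plots. The search, the joining and the test were tested on simulated data. Genes named are those on the lists with a selected peak within 10 kb, those with several selected peaks and those at the rank limits, and, of the genes nearest to sites of at most 1 mismatch, those of perfect sites outside families. *Mir34b*, genes at proximal peaks with a site, and genes named for neighboring peaks, were added after their values were seen. The selected peaks, gene lists and tests were chosen with earlier results of these data known. The values of 1 gene are not reported here.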

Additional observations from a re-analysis of the deposited data

How the results depend on the processing

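Of 122 alternative results over 14 settings, 111 kept direction and side of the threshold, among them all for proximal position, CpG-rich sequence and p53 sites in Group II against the end of Group I. The exceptions, as differences in percentage points, were these. For proximal position at the end of Group I against earlier Group I, a limit of 500 bp gave 6.08 (adjusted exact p = 0.018), and a portion widened to the last 300 peaks of Group I gave -0.652 (adjusted exact p = 0.79). For the p53 site in the same comparison, at most 2 mismatches gave 14.2 (adjusted exact p = 0.0015), the wider portion 15.1 (adjusted exact p = 2.1e-07) and spacers of 0 to 13 bp -0.854 (adjusted exact p = 0.83). For sites of at most 1 mismatch, Group II differed from the end of Group I by -20.6 with spacers (adjusted exact p = 0.0079) and -14.7 with the wider portion (adjusted exact p = 0.037), and from earlier Group I by 6.1 with a limit of 2 mismatches and 1.29 with spacers. For sites at proximal peaks of Group II against the end of Group I, a limit of 5 kb gave -21.3 (adjusted exact p = 0.014), and at distal peaks leaving out repeated sequence gave -18.1 (adjusted exact p = 0.053). The cause of these changes was not tested. With 1 library per condition, no peak's place in the order has an error, so the limits between the parts are uncertain by an unknown amount.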

Other observations

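Some selected peaks lay close to one another or to other peaks. Of the pairs within 1 kb of each other that held a selected peak, 1 joined the portions, rank 6615 at the end of Group I and rank 6761 in Group II, 197 bp apart upstream of *Klhdc4*. Rank 6615 had a perfect site within repeated sequence and rank 6761 had no site. Ranks 6691 and 6766, both Group II, were 318 bp apart, 175973 and 176291 bp from the TSS of *Hgf*, each with 25.0% GC. Together with rank 6754 near *Gm7271* (26.5% GC) they belonged to a family of 7 similar peaks in the list. Ranks 6607, 6636 and 6726 had *Gsdmc* as their nearest gene, at 127547, 80549 and 146441 bp, and none had a p53 site. At the end of Group I 12 of 140 peaks were on chromosome 14, beside 5 of 160 in Group II, and 6 of the 12 had an exact copy elsewhere in the genome. Chromosome 1 held 13 peaks of the same portion, and chromosomes 6, 15 and 17 held 10 each. The share of each chromosome in the whole list was not set beside these counts, so they show no excess on chromosome 14.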
